A study of Homo sapiens with 4 samples.

Results

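The 8 genes followed here encode RNA-binding proteins described as m6A readers outside the YTH family: IGF2BP2, IGF2BP3, HNRNPC, HNRNPA2B1, FMR1, FXR1, FXR2 and PRRC2A. They were chosen by name, as a fixed list of 8 symbols, out of 14416 genes in the input table, and all 8 were found there. Earlier results of these data were known when the list was chosen. The cells were OMM2.3, a human uveal melanoma line established from a liver metastasis. The line was used as wild type, a term that says nothing about the mutations of the tumour it came from. Cells were kept for 24 h in meclofenamic acid (MA), an anti-inflammatory drug that also inhibits the m6A demethylase FTO, or for the same 24 h in DMSO (NC), and all of them came from this single line. Each condition had 1 input library, which gives transcript levels, and 1 library of RNA fragments pulled down with an antibody to m6A (RIP), which gives a list of peaks. With 1 library per group no test between conditions was possible, and each difference is a property of these libraries. These were bulk samples, in which fewer cells of a type and less RNA per cell cannot be told apart.

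N6-methyladenosine (m6A) is a methyl mark laid on mRNA in the nucleus, most densely in long exons and around the stop codon, and its effects come from proteins that bind the marked transcript. YTH domain proteins hold the methylated base in a pocket. The proteins described here act in other ways. IGF2BP proteins bind mRNA through KH domains and are known for stabilising their targets, HNRNPC and HNRNPA2B1 are abundant nuclear proteins that package pre-mRNA and influence splicing and microRNA processing, and FMRP (encoded by FMR1) and its paralogs FXR1 and FXR2 regulate translation and mRNA stability. PRRC2A is a large proline-rich protein, described as an m6A reader in mouse brain.

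The input totals behind the per-million scale, recovered from the FPKM values, were 41630895 reads or fragments in MA and 37041597 in NC. Differences are log2((MA FPKM + 1)/(NC FPKM + 1)), taken over the 10564 genes that reached 1 FPKM in either input. Their median log2 difference was 0.11, and the 10th and 90th percentiles were -0.60 and 1.01. The peak lists held 19929 peaks for MA and 22067 for NC. All 7 melanocyte lineage markers checked were tested, and all 7 were lower in MA, 4 of them by 2-fold, with a summed level of 3172 FPKM in MA and 7307 in NC. The 4 epithelial markers were each under 0.1 FPKM in both inputs, and the immune and endothelial markers summed to 0.110 and 0.106 FPKM in MA and to 0.0934 and 0.278 in NC. The sums cover only the markers listed in the inputs. These were 2 of 4 immune markers, 1 of 3 endothelial markers (VWF) and 4 of 5 fibroblast markers. The fibroblast markers summed to 12.2 FPKM in MA and 5.16 in NC, nearly all from LUM, while COL1A1, DCN and PDGFRA were at or below 0.106 FPKM in both. Neither the lower melanocyte markers nor LUM was tested for a part in the results.

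All 8 readers were expressed in both inputs, and the differences split within the IGF2BP and FMR1 families: FXR1, FMR1 and IGF2BP3 were about 2-fold higher with MA, while FXR2, IGF2BP2, PRRC2A, HNRNPA2B1 and HNRNPC differed by less. FXR1 alone reached 2-fold on the log2(FPKM + 1) scale, 1 of 8 readers against 10.3% of all tested genes. None of the 8 was lower by 2-fold, against 2.98% of all tested genes, so both counts were near the background. The FXR1 call rested on the scale: its log2 difference of 1.04 became 0.93 with the median of all genes set to 0 and 0.96 with a pseudocount of 5, while that of FMR1 passed 2-fold, at 1.02, with a pseudocount of 0.1. The median log2 difference of the 8 readers was -0.06, with 4 above 0 and 4 below, beside the median of 0.11 over all tested genes.

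**Figure D1:**
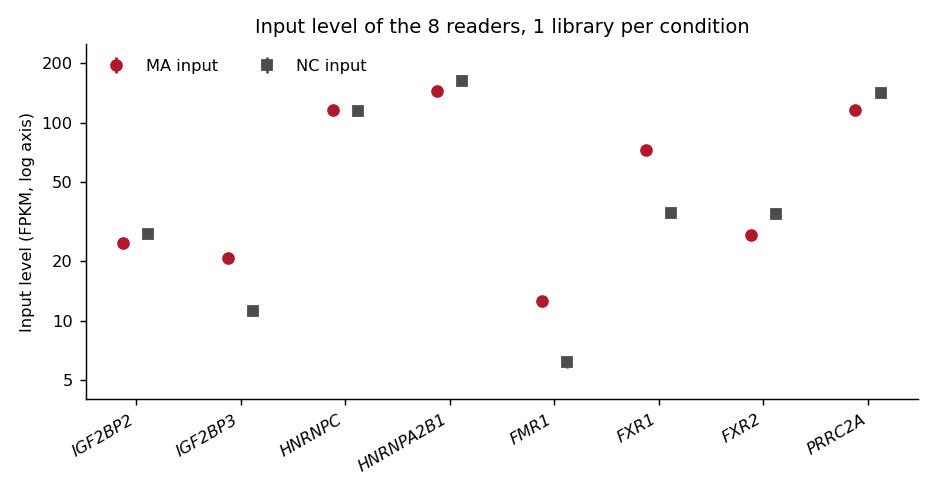
Input level in FPKM (log axis) of each reader in the MA library (circles) and the NC library (squares), with exact 95% counting intervals that are mostly hidden by the symbols. The intervals rest on the smallest read numbers that fit, and those of PRRC2A are too wide. FXR1, FMR1 and IGF2BP3 were higher in MA, and HNRNPC lay at nearly the same level in both.

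FXR1, the autosomal FMR1 paralog with a known role in muscle, measured 72.7 FPKM in MA, against 34.9 FPKM in NC. That was a fold of 2.09 (exact 95% counting interval 2.01 to 2.16) and a log2 difference of 1.04. FMR1, whose silencing causes fragile X syndrome, measured 12.6 FPKM in MA, against 6.15 FPKM in NC, a fold of 2.04 (1.90 to 2.20). Its log2 difference was 0.93, since the pseudocount weighs more at its low level. FXR2, the other autosomal paralog, measured 27.2 FPKM in MA, against 34.4 FPKM in NC, a fold of 0.791 (0.755 to 0.828) and a log2 difference of -0.33. The make-up of the family thus differed between the libraries. FXR1 and FXR2 were at the same level in NC within counting error, at a ratio of 1.01, while in MA the ratio of FXR1 to FXR2 was 2.67. FXR1 made up 64.7% of the summed FPKM of the 3 genes in MA and 46.2% in NC, and FXR2 24.2% in MA and 45.6% in NC. The ratio of FXR1 to FMR1 was nearly the same, 5.78 in MA and 5.67 in NC.

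In the IGF2BP family, IGF2BP3, an oncofetal protein that is silent in most adult tissues, measured 20.6 FPKM in MA, against 11.2 FPKM in NC. Its fold was 1.83 (1.73 to 1.94) and its log2 difference 0.82. IGF2BP2, the member expressed most widely in adults, measured 24.6 FPKM in MA, against 27.3 FPKM in NC, a fold of 0.901 (0.871 to 0.932) and a log2 difference of -0.15. IGF2BP2 therefore exceeded IGF2BP3 by 1.19 times in MA and by 2.43 times in NC. The remaining paralog, IGF2BP1, measured 0.0317 FPKM in MA, against 0.0178 FPKM in NC and was not tested.

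The remaining readers were the most abundant. HNRNPA2B1 measured 145 FPKM in MA, against 162 FPKM in NC, a fold of 0.895 (0.879 to 0.912) and a log2 difference of -0.16. PRRC2A measured 116 FPKM in MA, against 142 FPKM in NC, a fold of 0.821 (0.800 to 0.842) and a log2 difference of -0.28. The recovered length of PRRC2A falls short of the true one, so this interval is wider than its true read numbers would give. HNRNPC measured 116 FPKM in MA, against 115 FPKM in NC, a fold of 1.02 (0.998 to 1.04). At the smallest read numbers that fit, this was the only one of the 8 counting intervals that included 1. With a multiple of those numbers it would be narrower and might leave 1 out. With the median difference of all genes set to 0, the log2 difference of HNRNPC of 0.02 became -0.09. HNRNPC and HNRNPA2B1 have processed pseudogenes and, for HNRNPC, near-identical gene copies, so their reads may be split or shared and their levels are uncertain.

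In order of level per length, HNRNPA2B1 stood highest in MA, followed by HNRNPC and PRRC2A, which overlapped in their counting intervals, then FXR1, FXR2, IGF2BP2, IGF2BP3 and FMR1. In NC the order was HNRNPA2B1, PRRC2A, HNRNPC, then FXR1 and FXR2 with overlapping intervals, then IGF2BP2, IGF2BP3 and FMR1. Among all tested genes, these levels ran from the 56.5th percentile for FMR1 to the 96.6th for HNRNPA2B1 in MA, and from the 40.1st to the 96.5th in NC. The share of genes higher in MA moved with recovered length, which can fall short of the true transcript length. Split into 3 length classes of equal size, 6.62% of the shortest, 11.2% of the middle and 13.01% of the longest genes reached 2-fold. By recovered length, 6 of the readers were in the middle class, the 3 higher ones and FXR2 among them, with IGF2BP2 in the longest and PRRC2A in the shortest. Recovered lengths were 3255 bases for FXR1, 4441 for FMR1, 4392 for IGF2BP3 and 2987 for FXR2. The part of length in these differences was not tested. These lengths are the smallest that give whole reads. For PRRC2A the 2304 bases found are fewer than the 2342 exonic bases under its NC peaks, so its true length is a multiple. That is above the 2442 bases that bound the shortest class, so its class here is not its true one.

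The 3 readers that were higher by about 2-fold share no promoter letters searched here in all 3. The 250 bases upstream of their RefSeq transcript starts (GRCh38.p14) are shown because these genes had the largest input differences of the readers. Each gene has 1 difference, so whether these genes change together was not tested. Capitals mark any match, on either strand, to the E-box core CACGTG, the CCAAT box, the GC box GGGCGG or the TATA box sequence TATAAA.
FXR1, chr3:180912420-180912669, plus strand: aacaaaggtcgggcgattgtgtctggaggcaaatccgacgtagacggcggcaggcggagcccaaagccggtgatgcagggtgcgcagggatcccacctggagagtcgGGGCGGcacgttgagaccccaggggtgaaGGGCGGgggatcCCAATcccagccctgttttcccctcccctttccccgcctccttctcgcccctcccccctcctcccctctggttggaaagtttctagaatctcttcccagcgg
FMR1, chrX:147911669-147911918, plus strand: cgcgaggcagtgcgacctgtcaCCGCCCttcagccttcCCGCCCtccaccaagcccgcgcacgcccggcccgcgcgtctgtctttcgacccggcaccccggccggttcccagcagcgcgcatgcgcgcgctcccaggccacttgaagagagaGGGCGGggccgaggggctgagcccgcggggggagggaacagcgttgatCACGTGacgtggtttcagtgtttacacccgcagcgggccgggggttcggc
IGF2BP3, chr7:23470492-23470741, minus strand: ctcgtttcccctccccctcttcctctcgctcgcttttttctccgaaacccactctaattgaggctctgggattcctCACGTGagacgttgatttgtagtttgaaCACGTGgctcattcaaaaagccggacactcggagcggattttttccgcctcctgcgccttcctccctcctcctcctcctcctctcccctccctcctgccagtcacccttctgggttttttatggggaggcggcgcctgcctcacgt
FMR1 and IGF2BP3 held CACGTG, 1 and 2 times, and FXR1 did not. It occurred in none of the windows of the other 5 readers and in 7.26% of all 35116 windows of 300 bases, which take in 50 bases after the start. GGGCGG was found for FXR1 and FMR1, for IGF2BP2, PRRC2A, HNRNPC and FXR2 among the other 5, and in 44.95% of all windows. CCAAT was found for FXR1, for IGF2BP2, PRRC2A, HNRNPA2B1 and HNRNPC among the other 5, and in 34.6% of all windows. TATAAA was found for none of the 3, for IGF2BP2 and HNRNPC among the other 5, and in 11.5% of all windows. The motifs do not overlap one another in these windows. A match describes the letters only.

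**Figure D2:**
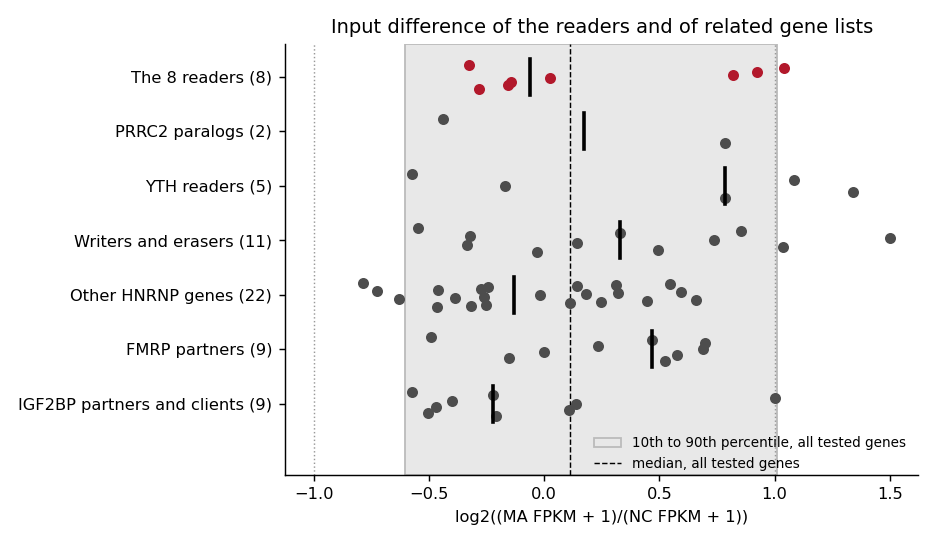
Input difference, log2((MA FPKM + 1)/(NC FPKM + 1)), of the 8 readers (top row) and of 6 related gene lists, 1 point per tested gene with the list's median as a bar. The shaded range is the 10th to 90th percentile of all tested genes, the dashed line their median of 0.11 and the dotted lines 2-fold. The readers fall into 3 genes between 0.82 and 1.04 and 5 genes between -0.33 and 0.02.

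The related lists are set beside the 10.3% of all tested genes that were higher and the 2.98% that were lower by 2-fold, and lists this short give shares that are only a description. Of the 5 YTH readers, YTHDC2 (9.05 FPKM in MA, 2.97 in NC, log2 difference 1.34) and YTHDC1 (14.6 FPKM in MA, 6.36 in NC, 1.08), were higher by 2-fold, and YTHDF3, a cytoplasmic reader, came next (17.6 FPKM in MA, 9.80 in NC, 0.78). Of 11 writers and erasers, 2 were higher by 2-fold. VIRMA, a scaffold of the writer complex, measured 25.98 FPKM in MA, against 8.54 FPKM in NC (1.50), and METTL14, the RNA-binding partner of METTL3, 5.50 FPKM in MA, against 2.17 FPKM in NC (1.03). WTAP, an adaptor of the same complex, came next with 13.9 FPKM in MA, against 7.25 FPKM in NC (0.85). None of 22 other tested HNRNP genes reached 2-fold in either direction. Their median was -0.13, and the extremes were HNRNPH3 (10.4 FPKM in MA, 18.7 in NC, -0.78), HNRNPM (66.3 and 110, -0.73) and HNRNPDL (59.3 and 37.1, 0.66). None of 9 FMRP partners reached 2-fold, although 6 were above 0 and the median was 0.47. The highest were NUFIP2 (15.1 FPKM in MA, 8.89 in NC, 0.70), which binds FMRP, the cap-binding protein EIF4E (15.9 and 9.50, 0.69) and the stress granule protein CAPRIN1 (62.2 and 41.4, 0.58). Of 9 tested IGF2BP partners and reported client mRNAs, MATR3, a nuclear matrix protein, reached 2-fold (72.0 FPKM in MA, 35.5 in NC, 1.00). Among the others the largest differences were those of the growth factor mRNA IGF2 (1.62 and 2.90, -0.57) and of MYC (45.2 and 64.5, -0.50), both classic IGF2BP clients.

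In the RIP libraries, transcripts of 7 of the 8 readers carried at least 1 peak, the same 7 in each list, against 80.0% of tested genes in the MA list and 83.3% in the NC list. They held 19 peaks in MA and 20 in NC. FXR2 had no peak in either list. FXR2 was above 20 FPKM in both inputs, and of the 2653 such genes 615 (23.2%) likewise had none. IGF2BP2 had 5 peaks in each list, a number reached by 8.198% of MA and 9.44% of NC genes with a peak. IGF2BP3 had 4 in MA and 3 in NC, PRRC2A 4 in each, HNRNPC 2 in MA and 3 in NC, FXR1 2 in each, FMR1 1 in MA and 2 in NC, and HNRNPA2B1 1 in each.

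By the authors' annotation, 8 of 19 MA peaks (42.1%) and 7 of 20 NC peaks (35.0%) of the readers lay in the 3' UTR, against 42.8% of all MA and 42.1% of all NC peaks. Peaks annotated only as exon were 8 in each list, 42.1% in MA and 40% in NC, against 34.0% and 33.8% of all peaks. Another 2 peaks in each list were in the 5' UTR, 1 in MA and 2 in NC at a start codon, and 1, in NC, at a stop codon. With so few peaks, exact 95% intervals of the 3' UTR share ran from 20.3 to 66.5% in MA and from 15.4 to 59.2% in NC.

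Of the merged regions of the readers, 16 of 19 in MA overlapped an NC region, against 79.6% of all MA regions, and 15 of 20 in NC overlapped an MA region, against 73.8% of all NC regions, so the readers' shares were near those of all regions. With 50% of each region required to overlap, 9 of 19 in MA and 9 of 20 in NC were shared. Among regions with a fold of 3 or more, 5 of 5 in MA and 5 of 11 in NC were shared. The shares of all regions at these settings were not computed, so these counts are not read as a trait of the readers. In 10 of the 16 MA peaks with a partner, the 5' or the 3' edge was the same base as in NC. Overlap was taken over the whole span, introns included, and a common exonic base was certain for 13 MA and 12 NC peaks. The peaks without a partner were 3 in MA, 2 of IGF2BP2 and 1 of IGF2BP3, and 5 in NC, 2 of IGF2BP2 and 1 each of HNRNPC, FMR1 and PRRC2A.

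Enrichment is given as the authors' own fold of RIP over input, which ranks peaks within a list and was not compared between lists. In the MA list, 14 of the 19 reader peaks lay below the list median of 3.07, and in the NC list 15 of 20 lay below its median of 3.57. Over all peaks in the genes above 20 FPKM in both inputs, the shares were similar, 76.8% in MA and 75.0% in NC. The median fold was 2.26 for the reader peaks and 2.34 for those genes in MA. In NC it was 3.18 for the reader peaks and 2.615 for those genes. FMR1 and IGF2BP3 were themselves not above 20 FPKM in both inputs. The 3 MA peaks without a partner had folds of 1.57 to 1.67, close to the lowest fold listed, 1.50. In NC those without a partner were at 1.52 in PRRC2A, 1.69 in HNRNPC, 2.22 and 2.43 in IGF2BP2 and 3.19 in FMR1.

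**Figure D3:**
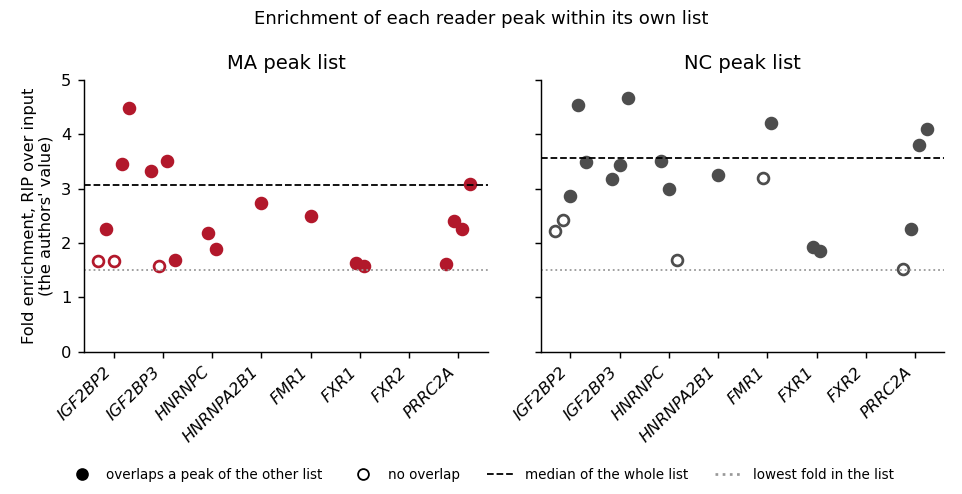
Fold enrichment of every reader peak in the MA list (left) and in the NC list (right), ordered 5' to 3' within a gene. Filled points overlap a peak of the other list and open points do not, the dashed line is the list median and the dotted line the lowest fold listed, 1.50. In MA the open points lie just above the dotted line, while FMR1 has an open point at 3.19 in NC.

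IGF2BP2 (chromosome 3, minus strand) carried a cluster at its 3' end in both lists and differed upstream of it. The 3' cluster, all labelled 3' UTR and here on GRCh38.p13, ran in MA as 4 peaks, 185645127 to 185647127 (fold 2.26), 185644877 to 185645027 (1.67), 185644328 to 185644678 (3.45) and 185643779 to 185644228 (4.48). In NC it ran as 3 peaks, 185645127 to 185649441 (2.87), 185644478 to 185644728 (4.54) and 185643779 to 185644129 (3.48). The most 3' peak ended on the same base in both, and only the short second MA peak of the cluster had no partner. Upstream of the cluster nothing overlapped. The MA list had 1 peak, labelled 5' UTR, with 151 exonic bases between 185698313 and 185821127 (1.67). The NC list had a start codon peak of 151 bases at 185824896 to 185825046 (2.22) and a peak of 301 exonic bases labelled 5' UTR at 185675344 to 185687146 (2.43). Both peaks labelled 5' UTR lay downstream of the start codon peak along the gene, so these labels cannot all refer to the same transcript. The NC one lay deep inside the gene.

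The outermost of these peaks met different transcript starts of IGF2BP2. The 5' edge of the NC start codon peak lay 4 bases upstream of the RefSeq start at 185825042, and that of the MA peak 15 bases downstream of a second RefSeq start at 185821142. The starts are given on GRCh38.p14, whose chromosome coordinates are those of p13. An edge within 20 bases of a RefSeq start was seen in 6.91% of 3299 MA and 10.7% of 3769 NC 5' peaks. These sets are smaller than all peaks labelled 5' UTR or start codon. Both starts are shown as 120 bases upstream and the first 30 transcribed bases, and capitals mark the transcribed bases from the peak's 5' edge onwards.
IGF2BP2, distal start, chr3:185825013-185825162, minus strand: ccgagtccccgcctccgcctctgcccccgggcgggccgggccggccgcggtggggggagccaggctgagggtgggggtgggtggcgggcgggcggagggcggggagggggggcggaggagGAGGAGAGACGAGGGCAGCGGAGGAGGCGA
IGF2BP2, internal start, chr3:185821113-185821262, minus strand: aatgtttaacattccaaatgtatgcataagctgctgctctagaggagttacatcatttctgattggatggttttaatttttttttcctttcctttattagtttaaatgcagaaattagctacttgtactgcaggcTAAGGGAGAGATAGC
All 30 transcribed bases of the distal start lay under the NC peak, and those of the internal start from base 16 on lay downstream of the MA peak's edge. The files give no level per transcript, so whether the libraries differed in the use of these starts was not tested.

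IGF2BP3 (chromosome 7, minus strand) had a start codon peak in both lists, 23469459 to 23470225 in MA (fold 3.33) and 23469459 to 23470076 in NC (3.17), with the same 3' edge. Toward the 3' end lay 23312153 to 23312826 in MA (3.50) and 23312203 to 23313549 in NC (3.43), both labelled 3' UTR. The most 3' pair overlapped but carried different labels, 3' UTR for 23311156 to 23311405 in MA (1.69) and stop codon for 23311056 to 23311256 in NC (4.67). The NC one was the most enriched peak of any reader in its list. An MA peak of 150 exonic bases between 23346029 and 23347715 (1.57), annotated as exon, had no partner.

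HNRNPC (chromosome 14, minus strand) had a 5' UTR peak that began at the same base, 21269343, in both lists, with 199 exonic bases in MA (fold 2.18) and 248 in NC (3.50). That edge was 99 bases downstream of the RefSeq start. Its exon peak began at 21211913 in both, and ran to 21211422 in MA (1.88) and to 21211274 in NC (2.99). A further 3' UTR peak at 21211027 to 21211175 (1.69) was listed in NC only. HNRNPA2B1 (chromosome 7, minus strand) had a single broad peak labelled 3' UTR, of 851 exonic bases in MA (26192169 to 26196915, fold 2.73) and 801 in NC (26192219 to 26196915, 3.24). About 9 in 10 peaks were narrower than it in either list (90.5% in MA, 91.2% in NC).

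**Figure D4:**
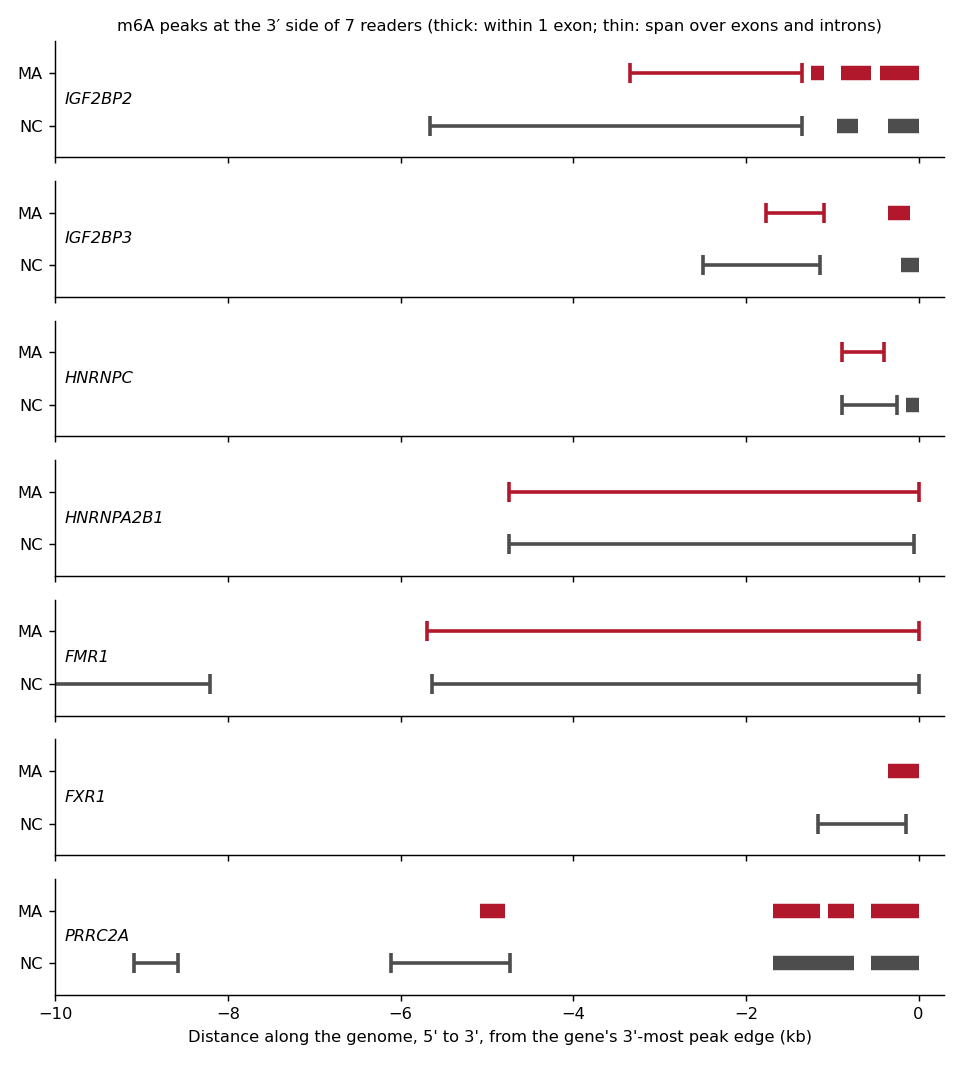
Position of the peaks of 7 readers within 10 kb of the gene's most 3' peak edge (x axis, kb along the genome, 5' to 3'), MA above NC. Thick bars are peaks within 1 exon and thin bars with end ticks are spans over exons and introns. Peaks farther upstream in IGF2BP2, IGF2BP3, HNRNPC and FXR1 are not drawn, and the first NC peak of FMR1 runs past the left border.

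In the FMR1 family, FMR1 (chromosome X, plus strand) had an exon peak with the same 3' edge in both lists, 147943142 to 147948830 in MA (599 exonic bases, fold 2.50) and 147943191 to 147948830 in NC (550 bases, 4.2). A second exon peak, 147932721 to 147940624 (400 exonic bases, 3.19), was in the NC list only. The part of input level or RIP depth in this was not tested. FXR1 (chromosome 3, plus strand) had peaks with lower folds than those of FMR1 in each list. Its exon peaks, 180953796 to 180962940 in MA (1.63) and 180951453 to 180957924 in NC (1.92), overlapped in span, but a common exonic base was not certain. Its 3' UTR peaks, 180976129 to 180976478 in MA (1.58) and 180975313 to 180976329 in NC (1.85), shared exonic bases. All 4 were among the least enriched 8.40% of their list.

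PRRC2A (chromosome 6, plus strand) had only peaks annotated as exon, in both lists. The last peak was identical in both, 31632358 to 31632905, with a fold of 3.09 in MA and 4.10 in NC. The MA peaks 31631214 to 31631761 (2.40) and 31631861 to 31632159 (2.26) had the outer edges of a single NC peak, 31631214 to 31632159 (3.8). Upstream, 31627822 to 31628120 in MA (1.62) lay inside the span 31626789 to 31628170 in NC (2.25). A short NC peak, 31623823 to 31624324 (1.52), had no partner. In MA the PRRC2A peaks had the largest p-values of the readers' peaks in the authors' deposited table, up to 0.0490 for the most upstream one, whose false discovery rate was 0.0724. Peaks of a gene often shared 1 p-value, as the 4 MA peaks of the IGF2BP2 3' cluster did (4.07e-07 in the authors' deposited table).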

How the data were processed

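OMM2.3 cells gave 1 m6A RIP and 1 input library per condition. Coordinates are on GRCh38.p13, and reads were handled with HISAT2, HISAT, Trimmomatic, ChIPseeker and deepTools, per the submitters' processing notes. The read counter, annotation release, tool versions and peak caller were not given in the sources used here. FPKM values per gene are those the authors deposited for the inputs. Per the file headers, the authors' peak lists give position, exonic length, feature, p-value, log10 p-value and fold enrichment. Repeated rows were counted once, which took 99 rows from the MA and 132 from the NC list, and starts were raised by 1. The log10 columns were not used.

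Whole reads behind the FPKM values were recovered: the totals made the length of 140 genes equal to their RefSeq span, against 33 at the next best, and 99.97% of 13055 genes above 0 in both inputs gave whole reads within 5e-05 of a read, against 1.83% after a small shift of the values. These are the smallest read numbers that give the values. Fold intervals (exact binomial, 95%) and level intervals (exact Poisson, 95%) were computed from them and cover counting error only, since PCR reads are not independent molecules. Where the true read numbers are a multiple, as for PRRC2A, the intervals are wider than the true numbers would give. The RIP depth is unknown. Peaks of a list that touched or overlapped on a strand were merged, and regions overlapping by 1 bp or more on the same strand were counted as shared. The recovery, the 2-fold count and the overlap were checked on simulated data. Promoter sequences are from RefSeq (GRCh38.p14), and all 8 genes matched by symbol. All 8 genes are named, with every peak. Of each comparison list the genes at 2-fold or beyond are named and, where these are fewer than 3, the 3 largest differences. The members and lists were chosen with earlier results of these data known. Pseudocounts, scaling, filters, a fold minimum, equal list lengths and stricter overlap were tried as alternatives. Python 3.11.15, numpy 2.4.6, pandas 2.3.3 and scipy 1.17.1 were used.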

Additional observations from a re-analysis of the deposited data

How the results depend on the processing

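The number of readers at or beyond 2-fold was 1, and it was 2 (FXR1 and FMR1) with a pseudocount of 0.1 or after rescaling to TPM, and 0 with a pseudocount of 5 or with the median difference of all genes set to 0. The share of all tested genes higher by 2-fold went with it, at 17.05% and 16.97% for the settings that gave 2, and at 2.58% and 7.16% for those that gave 0. Filters on low FPKM did not change the count. The median difference of the readers was -0.17 with the median of all genes set to 0 and 0.0146 as TPM, against -0.06. The 8 signs were kept under both pseudocounts and as TPM, and 7 of 8 with the median set to 0, HNRNPC being the exception. With peaks at a fold of 3 or more, 5 MA and 11 NC peaks of the readers were left, and 5 regions of each list were shared. Of all peaks, 55.8% in MA and 65.5% in NC were left. The same minimum was used in both lists, although their median folds were 3.07 in MA and 3.57 in NC. Requiring an overlap of 50% of both regions left 9 shared regions in each list. The share of all regions was not computed at this setting or at the fold minimum. With equal numbers of peaks by p-value 19 peaks were left in each list and 16 MA and 15 NC regions were shared. A certain common exonic base, an alternative chosen after seeing the data, left 13 in MA and 12 in NC. The overlap of exon blocks was not run, because the lists as used here hold no blocks. No paired analysis was possible because each group had 1 library, and no replicate could be left out. Differences between conditions cannot be told apart from those between cultures or library preparations.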

Other observations

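The paralogs of PRRC2A differed in opposite directions in the inputs. PRRC2C measured 46.2 FPKM in MA, against 26.4 FPKM in NC (log2 difference 0.78), and PRRC2B measured 22.6 FPKM in MA, against 31.0 FPKM in NC (-0.44). Both carried long stretches of peaks in their exons, as PRRC2A did, and unlike it both also had 3' UTR peaks. PRRC2C had 5 peaks in MA and 7 in NC, with an MA exon peak of 3592 exonic bases (chromosome 1, 171537367 to 171558101, fold 3.67). PRRC2B had 6 peaks in MA and 7 in NC. Every MA peak of both paralogs overlapped an NC peak, and the NC peaks without a partner were the most 5' ones, in PRRC2B at chromosome 9, 131430230 to 131436661 (fold 1.89) and in PRRC2C at chromosome 1, 171485596 to 171514597 (fold 2.43). Among the other 22 tested HNRNP genes, 18 had a peak in the MA list and 22 in the NC list, against 80.0% and 83.3% of all tested genes, so the MA count was near the share of all genes. The 4 with a peak in NC only were HNRNPL, HNRNPLL, PTBP1 and RALY, named after their values were seen. HNRNPL measured 130 FPKM in MA, against 115 FPKM in NC, and RALY, a close relative of HNRNPC, 155 FPKM in MA, against 186 FPKM in NC. The depth of the RIP libraries is unknown, and its part in these counts was not tested.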
